A study of Homo sapiens with 24 samples.

Results

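The genes described here encode 10 sodium and potassium channels of epithelial cells. They were chosen by symbol: the 4 subunits of the epithelial sodium channel ENaC (SCNN1A, SCNN1B, SCNN1G and SCNN1D), 3 tandem-pore (K2P) potassium channels (KCNK1, KCNK5 and KCNK6), 2 calcium-activated potassium channels (KCNMA1 and KCNN4) and 1 inward rectifier (KCNJ2). All 10 were present among the 60660 features of the deposited gene tables. The study measured poly(A) RNA in 2 human prostate cancer cell lines: PC3, an androgen-independent line from a bone metastasis, and LNCaP, which responds to androgen and came from a lymph node metastasis. Each line was used as its parental form and as a chronic-exposure (CE) derivative, which had been grown in rising Acetalax (oxyphenisatin acetate) until resistance was stable and then kept free of drug for 2 weeks. Each of these 4 kinds of cells was left untreated (control) or given 10 µM Acetalax for 4 h, which gives 8 groups of 3 libraries, all of batch 1 per the labels. PC3 cells were grown in F-12 and LNCaP cells in RPMI-1640, both with serum, so line and medium cannot be told apart in any comparison between the lines. There was 1 derivative per line. The labels call the libraries biological triplicates without naming separate cultures, so the p-values measure the spread between these libraries, which may be technical.

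ENaC carries sodium into epithelial cells across their apical membrane. Its alpha subunit (SCNN1A) assembles with beta (SCNN1B) and gamma (SCNN1G), or the delta subunit (SCNN1D) can take the place of alpha, and the channel is activated by proteolytic cleavage and removed from the membrane through the ubiquitin ligase NEDD4L. Potassium channels set the membrane potential that drives this entry: K2P channels pass a leak current, KCNMA1 (the BK channel) and KCNN4 (the intermediate-conductance channel) open when calcium in the cell rises, and KCNJ2 (Kir2.1) holds the resting potential. Acetalax is studied in cells rich in TRPM4, a sodium-conducting channel that is itself opened by calcium.

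Promoter sequences from RefSeq (GRCh38.p14), the 250 bases before a RefSeq transcription start, were matched to 7 of the 10 members; this start can lie downstream of the GENCODE gene start given later, so that the KCNMA1 and KCNN4 sequences fall inside the longer GENCODE gene and that of KCNK1 overlaps its first bases. SCNN1A, SCNN1G and SCNN1D are named only. The 4 below are shown as examples: KCNK1 and KCNMA1 were lower in the CE derivatives of both lines, while KCNK5 and KCNN4 went in opposite directions in the lines. The KCNN4 rise in LNCaP rests on 4 parental and 30 CE counts, with overlapping TPM. KCNK6, also matched, fell in PC3 and rose in LNCaP too and is not shown. Capitals mark the GC box GGGCGG or its complement CCGCCC, and overlapping matches are counted singly.
KCNK1 (chr1:233613856-233614105, + strand): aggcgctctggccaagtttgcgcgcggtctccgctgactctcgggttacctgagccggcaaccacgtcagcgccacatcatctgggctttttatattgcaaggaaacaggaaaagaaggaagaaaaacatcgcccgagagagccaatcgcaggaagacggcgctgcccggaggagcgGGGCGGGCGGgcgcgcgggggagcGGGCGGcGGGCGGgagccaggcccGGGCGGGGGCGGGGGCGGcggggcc
KCNMA1 (chr10:77637809-77638058, − strand): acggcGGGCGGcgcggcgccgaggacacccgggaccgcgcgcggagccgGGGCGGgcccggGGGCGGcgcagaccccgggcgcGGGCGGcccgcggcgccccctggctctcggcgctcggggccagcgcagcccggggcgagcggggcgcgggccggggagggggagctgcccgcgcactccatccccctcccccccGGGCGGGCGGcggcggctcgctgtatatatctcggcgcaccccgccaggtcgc
KCNK5 (chr6:39229476-39229725, − strand): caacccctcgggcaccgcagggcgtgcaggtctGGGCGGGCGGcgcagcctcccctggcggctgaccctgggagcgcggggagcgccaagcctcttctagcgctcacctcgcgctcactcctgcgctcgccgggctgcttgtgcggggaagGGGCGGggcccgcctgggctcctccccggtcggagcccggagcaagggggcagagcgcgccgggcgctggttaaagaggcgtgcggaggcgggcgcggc
KCNN4 (chr19:43780974-43781223, − strand): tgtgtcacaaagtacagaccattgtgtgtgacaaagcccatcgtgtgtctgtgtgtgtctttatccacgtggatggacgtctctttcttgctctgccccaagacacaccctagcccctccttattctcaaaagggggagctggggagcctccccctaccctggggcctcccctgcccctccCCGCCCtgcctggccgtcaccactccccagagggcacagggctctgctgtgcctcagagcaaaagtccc
KCNMA1 has 2 entries: the sequence shown had 85.6% G or C, 46 CpG and 6 GC boxes, and the other (chr10:77350762-77351011) had 53.6% G or C, 1 CpG and 0 GC boxes. In turn, the KCNK1 sequence had 69.2% G or C, 30 CpG and 7 GC boxes. The KCNK5 sequence had 77.2% G or C, 31 CpG and 3 GC boxes. KCNN4 had 60.0% G or C, 5 CpG and 1 GC box. Among 35116 promoter sequences of this length, 42.6% held at least 1 GC box on either strand, and the median was 58% G or C with 11 CpG. TATAAA on either strand was found in KCNK1 among these 4, and in 10.7% of all promoters. Each of the 4 sequences shown held a GC box, and the second KCNMA1 entry did not.

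The libraries held between 40160832 and 57728014 counts. In the libraries labelled CE, defining markers of the parental cell type were low. The 5 epithelial markers together summed to 2049 to 2327 TPM (transcripts scaled for gene length and library size) in the PC3 parental controls and 22.7 to 24.8 TPM in the PC3 CE controls, and to 1224 to 1461 TPM against 6.88 to 8.13 TPM in LNCaP. The 5 luminal prostate markers summed to 4037 to 6682 TPM in LNCaP parental controls and 1.19 to 2.86 TPM in LNCaP CE controls. The sum of the 5 fibroblast markers was higher in the CE controls, at 2142 to 2154 TPM in PC3 and 537 to 571 TPM in LNCaP, against 30.8 to 38.5 and 8.42 to 22.3 TPM in the parental controls. In PC3 that sum was almost all COL1A2 (2107 to 2119 TPM), while COL1A1 was lower in the PC3 CE controls (mean 11.2 TPM) than in the parental ones (33.4 TPM) and at a mean of 12.2 against 16.2 TPM in LNCaP. The melanocyte marker TYRP1 was at 370.0 to 389.6 TPM in the PC3 CE controls, where MLANA and TYR were at 0. The other melanocyte markers had lower means there than in PC3 parental controls: MITF 0.21 against 4.04 TPM, PMEL 0.673 against 2.90 TPM and DCT 0.0167 against 0.213 TPM. Across 20934 genes, the mean profiles of the PC3 CE and LNCaP CE controls were more alike (Pearson r = 0.954, across genes, which are not independent replicates) than either was to its own parental controls (0.791 and 0.817). For these reasons the CE samples are called "libraries labelled CE". Their descent from the parental lines is taken from the labels and was not tested, and the part of this difference in cell type in the channel results was not tested. Within bulk samples, fewer cells of a type and less RNA per cell cannot be told apart.

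A set of 3 libraries stood apart from their groups: LNCaP parental control 2 and LNCaP parental Acetalax 3 (mean r with their group 0.973 and 0.972) and PC3 CE Acetalax 1 (0.962), where the others of PC3 CE Acetalax were at 0.976 and 0.975 and the remaining libraries at 0.980 or above. The separation was also seen in regulators of ENaC. TSC22D3, the corticosteroid-induced GILZ, was at 20.4 TPM in LNCaP parental control 2 and at 94.7 and 95.6 TPM in the other controls of that group, and at 66.2 TPM in PC3 CE Acetalax 1 against 7.71 and 5.09 TPM in the others. Where a result rests on these libraries it is also given without them.

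Summed TPM of the channels was lower in the libraries labelled CE, but members differed in their parental level and direction. Of the 10 members, 7 had a mean of at least 1 TPM in the parental controls of PC3 and 7 in those of LNCaP, and 6 and 3 reached 10 TPM. In the CE controls, 5 reached 1 TPM in PC3 and 4 in LNCaP, and 0 reached 10 TPM. The 4 ENaC subunits together had 41.9 ± 1.77 TPM (SD, n = 3) in PC3 parental controls and 6.43 ± 0.797 TPM in PC3 CE controls, and 82.3 ± 15.9 TPM against 4.30 ± 0.272 TPM in LNCaP. The 6 potassium channels together had 136 ± 8.08 TPM in PC3 parental controls and 8.84 ± 0.361 TPM in PC3 CE controls, and 58.3 ± 4.77 against 7.26 ± 0.247 TPM in LNCaP. KCNN4 led in PC3 parental controls and SCNN1A in LNCaP parental controls.

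**Figure D1:**
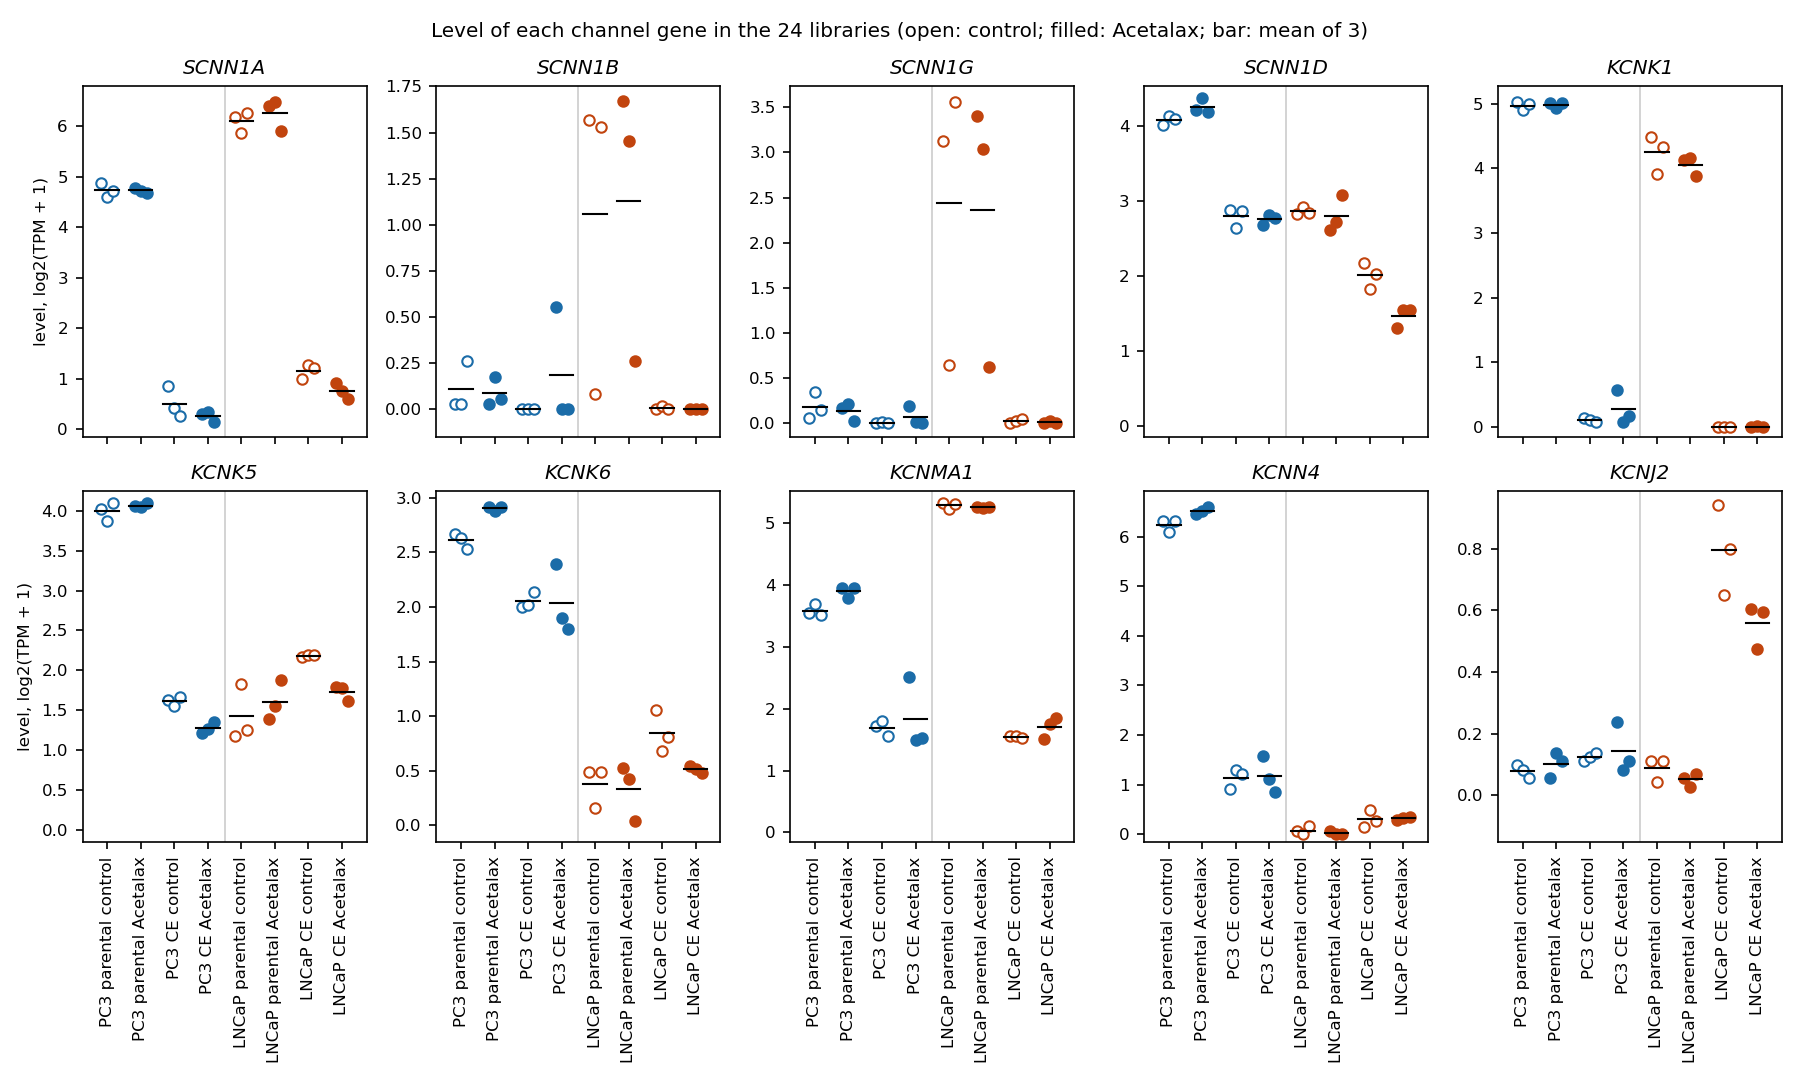
Level of each of the 10 channel genes, log2(TPM + 1), in the 24 libraries; each point is 1 library, the bar is the mean of the group's 3 libraries, open points are controls and filled points Acetalax, with PC3 in blue and LNCaP in orange. SCNN1A, KCNK1, KCNMA1 and KCNN4 fill the upper range in parental groups only (KCNN4 in PC3 alone), and the Acetalax points lie near their controls.

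The comparison of CE with parental controls asks how the untreated libraries labelled CE differed from those of the parental line that the labels name. In PC3, 8 of the 9 members tested were lower, the exception being KCNJ2, which was not called, by edgeR's quasi-likelihood test with Benjamini-Hochberg adjustment over all genes. Of all 20049 genes tested in PC3, 77.5% were called in this comparison, 39.0% lower and 38.5% higher. The median log2 fold change was -2.93 over the members and -0.01 over all genes. In LNCaP, 6 of 10 members were lower and 4 higher, where 75.3% of 19393 genes were called, 39.3% lower and 36.0% higher, with a median of -2.59 over the members and -0.06 over all genes. Being called was thus the usual state of a gene here. The count over members is no support in itself, because some members passed the low-count filter only through the group where they were high: KCNK1 through parental libraries in both lines, SCNN1G through parental libraries in LNCaP, and KCNJ2 through CE libraries in both lines. SCNN1B failed the filter in PC3. In LNCaP, SCNN1B likewise reached the minimum in parental libraries alone and KCNN4 in CE libraries alone. SCNN1G in PC3 passed on scattered libraries, most of them parental. In none of these cases did all 3 libraries of a group reach the minimum.

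**Figure D2:**
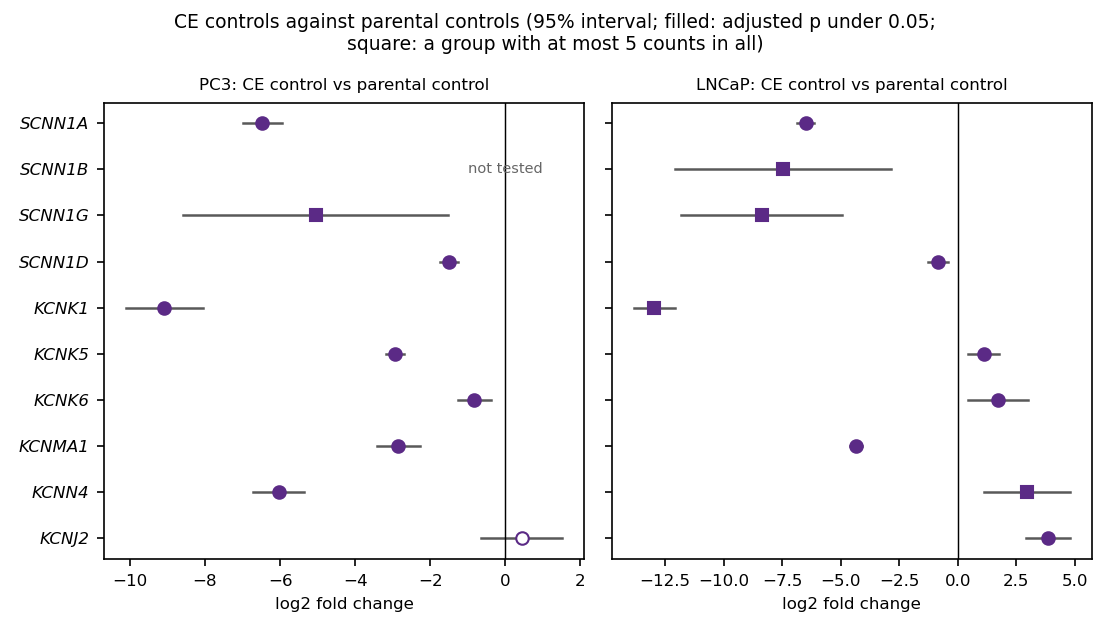
Log2 fold change of CE control against parental control for each member, with its 95% interval, in PC3 (left) and LNCaP (right); filled symbols have an adjusted p under 0.05, and squares mark genes with at most 5 counts in all libraries of one group, whose fitted value depends on the prior count. Most members lie left of 0 in both panels, while KCNK5, KCNK6, KCNN4 and KCNJ2 lie right of 0 in LNCaP.

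SCNN1A, the alpha subunit needed for full ENaC current, fell strongly in both lines. It was at 28.5, 23.3 and 25.4 TPM in the PC3 parental controls and at 0.81, 0.33 and 0.19 TPM in the PC3 CE controls. In LNCaP it was at 71.7, 57.2 and 76.0 TPM in the parental controls and at 1.00, 1.42 and 1.30 TPM in the CE controls. The parental and CE libraries were far apart in both lines. Its log2 fold change by edgeR was -6.47 ± 0.24 (SE) in PC3 (adjusted p = 3.44e-10, 88.7-fold lower) and -6.49 ± 0.16 in LNCaP (adjusted p = 6.92e-11, 89.6-fold lower). SCNN1A lies at chr12:6346843-6377730 on the − strand and overlaps LTBR, a lymphotoxin receptor gene on the other strand. LTBR was at 203 to 243 TPM in PC3 parental controls and 0.56 to 1.15 TPM in PC3 CE controls, and at 149 to 164 against 0.26 to 0.58 TPM in LNCaP. The sources used here do not state the strand setting of the counting, and whether LTBR reads entered the SCNN1A values was not tested.

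SCNN1B and SCNN1G, the beta and gamma subunits, were found mainly in parental LNCaP. They are neighbours at chr16:23278231-23381299 and chr16:23182715-23216883, both on the + strand and 61.3 kb apart. SCNN1G was at 7.73, 0.56 and 10.8 TPM in the LNCaP parental controls, and SCNN1B at 1.96, 0.06 and 1.89 TPM. The low library of both genes was replicate 2, the control that stands apart. In the parental Acetalax group the low library was replicate 3, at 0.54 TPM for SCNN1G against 9.60 and 7.24 TPM, and at 0.20 TPM for SCNN1B against 2.18 and 1.74 TPM. Both genes were almost silent in LNCaP CE controls, with 5 SCNN1G counts against 1937 in the parental controls and 1 SCNN1B count against 258. The SCNN1B count ratio was 0.00432, with a 95% exact counting interval from 0.000109 to 0.0243 that covers counting error only. By edgeR the adjusted p was 0.000504 for SCNN1G and 0.0082 for SCNN1B in LNCaP. Without the libraries that stand apart the fitted log2 fold changes were -8.95 ± 0.33 (SE) for SCNN1G and -8.07 ± 0.52 for SCNN1B, against -8.37 ± 1.56 and -7.46 ± 2.03 with them. In PC3 both subunits were under 0.3 TPM in each parental control; SCNN1G fell from 39 counts to 1 (ratio 0.0221, interval 0.000547 to 0.131, edgeR adjusted p = 0.013), and leaving out replicate 2 of the parental controls ended that call (adjusted p = 0.0557). SCNN1B, not tested in PC3, had 13 counts in parental controls and 0 in CE controls, at least 5.02-fold lower against a floor of 3 counts over the group. Of those 13 counts, 11 came from replicate 3, so this bound rests on 1 library.

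SCNN1D, the delta subunit (chr1:1280436-1292029, + strand), had the smallest fold change of the ENaC genes tested. It was at 15.2, 16.6 and 16.1 TPM in PC3 parental controls and at 6.38, 5.26 and 6.30 TPM in PC3 CE controls, a log2 fold change of -1.49 ± 0.11 by edgeR (adjusted p = 1.24e-07, 2.81-fold lower). In LNCaP it was at 6.10, 6.61 and 6.18 TPM in parental controls and at 3.50, 2.54 and 3.08 TPM in CE controls, a log2 fold change of -0.85 ± 0.19 (adjusted p = 0.00188, 1.80-fold lower). The groups did not overlap in either line. The composition of the ENaC transcripts therefore differed: SCNN1D made up 38.2 ± 3.26% (SD, n = 3) of the summed subunit TPM in PC3 parental controls and 93.2 ± 4.21% in PC3 CE controls. In LNCaP its share was 7.92 ± 2.04% in parental controls and 70.4 ± 7.08% in CE controls. SCNN1A held 61.2% and 83.6% in the parental controls of PC3 and LNCaP, and 6.70% and 29.1% in the CE controls. Shares of transcripts give no count of assembled channels.

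**Figure D3:**
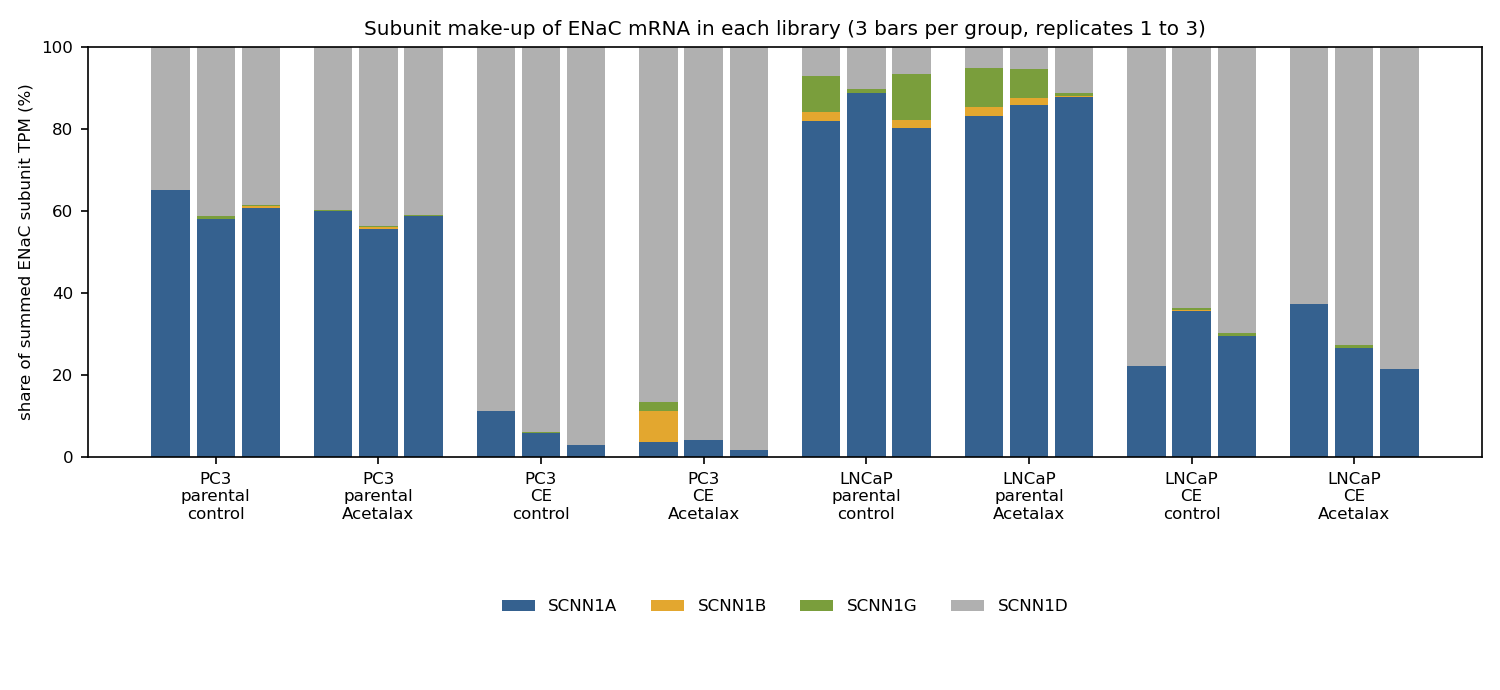
Share of the summed TPM of the 4 ENaC subunits held by each subunit, in percent, in each of the 24 libraries (1 stacked bar each). SCNN1A takes most of each parental LNCaP bar, and SCNN1D most of each bar labelled CE.

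Among the K2P channels, KCNK1 (TWIK1) fell in both lines while KCNK5 and KCNK6 fell in PC3 and rose in LNCaP. KCNK1 (chr1:233614004-233672512, + strand) was at 31.5, 28.9 and 30.8 TPM in PC3 parental controls and at 0.10, 0.08 and 0.06 TPM in PC3 CE controls, a log2 fold change of -9.08 ± 0.47 (edgeR adjusted p = 6.04e-09, 541-fold lower). In LNCaP parental controls it was at 21.4, 14.1 and 19.1 TPM, with 3146 counts in all, and in the CE controls it had 0 counts, at least 940-fold lower against a floor of 3 counts over the group (edgeR adjusted p = 3.49e-09). KCNK1 was thus near 0 in both sets of libraries labelled CE.

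KCNK5 (TASK2; chr6:39188973-39229450, − strand), an alkaline-activated leak channel of kidney epithelium, was at 15.3, 13.7 and 16.2 TPM in PC3 parental controls and at 2.10, 1.92 and 2.16 TPM in PC3 CE controls. In LNCaP it was at 1.26, 2.56 and 1.39 TPM in parental controls and at 3.48, 3.56 and 3.57 TPM in CE controls. The parental lines were 8.62-fold apart and the CE controls 1.87-fold, with the order of the lines turned round. The log2 fold change by edgeR was -2.93 ± 0.11 in PC3 (adjusted p = 3.36e-10, 7.63-fold lower) and 1.11 ± 0.31 in LNCaP (adjusted p = 0.00661, 2.15-fold higher). The groups did not overlap in either line, and without the libraries apart the LNCaP value was 1.53.

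KCNK6 (TWIK2; chr19:38319844-38332076, + strand) was at 5.37, 5.21 and 4.77 TPM in PC3 parental controls and at 2.99, 3.06 and 3.41 TPM in PC3 CE controls, a log2 fold change of -0.82 ± 0.20 (edgeR adjusted p = 0.00285, 1.77-fold lower). In LNCaP it was at 0.40, 0.12 and 0.40 TPM in parental controls and at 1.08, 0.60 and 0.75 TPM in CE controls, a log2 fold change of 1.72 ± 0.58 (adjusted p = 0.0182, 3.30-fold higher). The groups did not overlap. The LNCaP call was lost without LNCaP parental control 1 (adjusted p = 0.0605) and by limma on log2(TPM + 0.1) (adjusted p = 0.0566); without the libraries apart the log2 fold change was 1.38 and the call stood.

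Of the calcium-activated channels, KCNMA1 was expressed in both parental lines and KCNN4 in PC3, and both were below 3 TPM in each CE control. KCNMA1, the pore of the BK channel (chr10:76869601-77638369, − strand), was at 10.6, 12.0 and 10.4 TPM in PC3 parental controls and at 2.28, 2.49 and 1.94 TPM in PC3 CE controls. Its log2 fold change was -2.85 ± 0.26 (edgeR adjusted p = 1.13e-06, 7.21-fold lower). In LNCaP it fell further, from 39.0, 36.2 and 38.6 TPM to 1.95, 1.95 and 1.87 TPM, a log2 fold change of -4.34 ± 0.11 (adjusted p = 7.54e-11, 20.3-fold lower). The CE controls of the lines overlapped in TPM.

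KCNN4 (KCa3.1; chr19:43766533-43781261, − strand), which supports calcium entry by hyperpolarising the cell, was at 78.3, 67.2 and 78.7 TPM in PC3 parental controls, the highest level of any member in that line. In PC3 CE controls it was at 0.88, 1.47 and 1.31 TPM, a log2 fold change of -6.04 ± 0.31 (edgeR adjusted p = 5.34e-09, 65.8-fold lower). LNCaP had almost none: 4 counts in all in the parental controls and 30 in the CE controls (TPM 0.04, 0 and 0.12 against 0.11, 0.41 and 0.21). That rise was called (log2 fold change 2.96 ± 0.83, adjusted p = 0.00726), but the TPM values of the groups overlapped and the level stayed under 1 TPM.

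KCNJ2 (chr17:70168673-70180048, + strand) was below 1 TPM in every library. In PC3 it was at 0.07, 0.06 and 0.04 TPM in parental controls and at 0.08, 0.09 and 0.10 TPM in CE controls, with no call (log2 fold change 0.43, 95% interval -0.65 to 1.51, edgeR adjusted p = 0.433). In LNCaP it rose from 0.08, 0.03 and 0.08 TPM to 0.92, 0.57 and 0.74 TPM, with 25 and 330 counts (log2 fold change 3.85 ± 0.43, adjusted p = 9.93e-06, 14.5-fold higher). The LNCaP CE controls lay above all LNCaP parental libraries.

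Between the untreated parental lines, LNCaP had more ENaC and BK transcript and PC3 more KCNN4, K2P and delta-subunit transcript. Of the 10 members, 4 were higher and 5 lower in LNCaP, where 70.3% of all 21955 genes were called, 35.5% higher and 34.7% lower. SCNN1A was 3.51-fold higher in LNCaP (log2 1.81 ± 0.15, edgeR adjusted p = 1.75e-09) and KCNMA1 3.76-fold higher (1.91 ± 0.19, adjusted p = 2.23e-08). SCNN1G was 43.2-fold higher (5.43 ± 1.07, adjusted p = 0.000143), and 5.99 ± 0.35 on the log2 scale without the libraries apart. The SCNN1B difference of 4.14 ± 1.36 on the log2 scale (adjusted p = 0.0125) was lost without PC3 parental control 1 (adjusted p = 0.0505) or 2 (0.0506). In the other direction, KCNN4 had 4 counts in LNCaP against 9559 in PC3 (log2 -11.31 ± 0.47, adjusted p = 1.78e-14). KCNK6 was 20.5-fold, KCNK5 8.62-fold, SCNN1D 2.92-fold and KCNK1 1.80-fold lower in LNCaP. For KCNJ2 the interval of the log2 difference ran from -1.31 to 0.79 (adjusted p = 0.665).

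Between the untreated libraries labelled CE, 3 members were higher and 4 lower in LNCaP, where 41.0% of all genes were called, 16.7% higher and 24.2% lower. KCNJ2 was 8.76-fold higher in LNCaP CE controls (edgeR adjusted p = 8.04e-06), SCNN1A 3.41-fold higher (1.96e-06) and KCNK5 1.87-fold higher (0.00289). KCNN4 was 5.03-fold lower (adjusted p = 7.61e-05), KCNK6 3.58-fold lower (0.000712) and SCNN1D 1.90-fold lower (8.6e-05). KCNK1, with 0 counts against 10, was at least 3.04-fold lower, and its call was lost without PC3 CE control 1 (adjusted p = 0.0602). KCNMA1 was not called, with a log2 difference of 0.39 on counts (interval -0.03 to 0.82), although its mean TPM was 1.92 in LNCaP CE and 2.24 in PC3 CE controls. On TPM, limma on log2(TPM + 1) gave -0.14 (adjusted p = 0.638), so the sign differed between the scales. Without the libraries apart the count-based difference was called (0.39, adjusted p = 0.00358).

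The change from parental to CE was also compared between the lines, by an interaction term. It uses the same 4 control groups as the comparisons above and shares their libraries. Of the 10 members, 5 changed more upward and 2 more downward in LNCaP than in PC3, where 56.8% of all genes were called, 25.7% upward and 31.2% downward. KCNN4 differed by 8.98 ± 0.78 on the log2 scale (edgeR adjusted p = 3.98e-09), KCNK5 by 4.01 ± 0.33 (1.33e-09), KCNJ2 by 3.39 ± 0.67 (0.000198) and KCNK6 by 2.52 ± 0.56 (0.000689). The KCNN4 value sets the PC3 fall against LNCaP groups near 0 (4 parental and 30 CE counts). It ranged from 5.33 to 10.2 over the settings. KCNJ2 was below 1 TPM in every library. KCNMA1 fell further in LNCaP, by -1.52 ± 0.28 (adjusted p = 9.04e-05). The SCNN1D difference of 0.62 ± 0.22 (adjusted p = 0.0217) was lost without LNCaP CE control 3 (0.0585), LNCaP parental control 2 (0.0600) or PC3 CE control 1 (0.0567) or 2 (0.0533). The KCNK1 difference of -3.87 ± 1.60 (adjusted p = 0.0462) compares groups near 0, and limma on log2(TPM + 1) gave 0.62, the opposite sign. For SCNN1A the lines were not told apart, with a difference of -0.04 and an interval from -0.74 to 0.65, although limma on log2(TPM + 1) called a larger fall in LNCaP (-0.72, adjusted p = 0.0108).

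Few members were called after 4 h of Acetalax, near the share over all genes given beside each count. This comparison asks for the early response in each kind of cell. The parental and CE contrasts share their control libraries with the comparisons above. In parental PC3, 0 of the 9 members tested were called by edgeR, where 7.80% of all genes were, with 1 member (SCNN1D) at an unadjusted p under 0.05 1 called by DESeq2 (SCNN1D) and 0 by limma on either TPM scale. In parental LNCaP, 0 of 10 were called, where 8.45% of all genes were, with 0 at an unadjusted p under 0.05 and 0 called by DESeq2 or limma. In PC3 CE, 1 of 9 was called, KCNK5, where 8.15% of all genes were. In LNCaP CE, 0 of 10 were called, where 7.40% of all genes were, with 3 at an unadjusted p under 0.05 (SCNN1A, SCNN1D and KCNMA1) 1 called by DESeq2 (KCNMA1) and 1 by limma on either scale (SCNN1D).

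**Figure D4:**
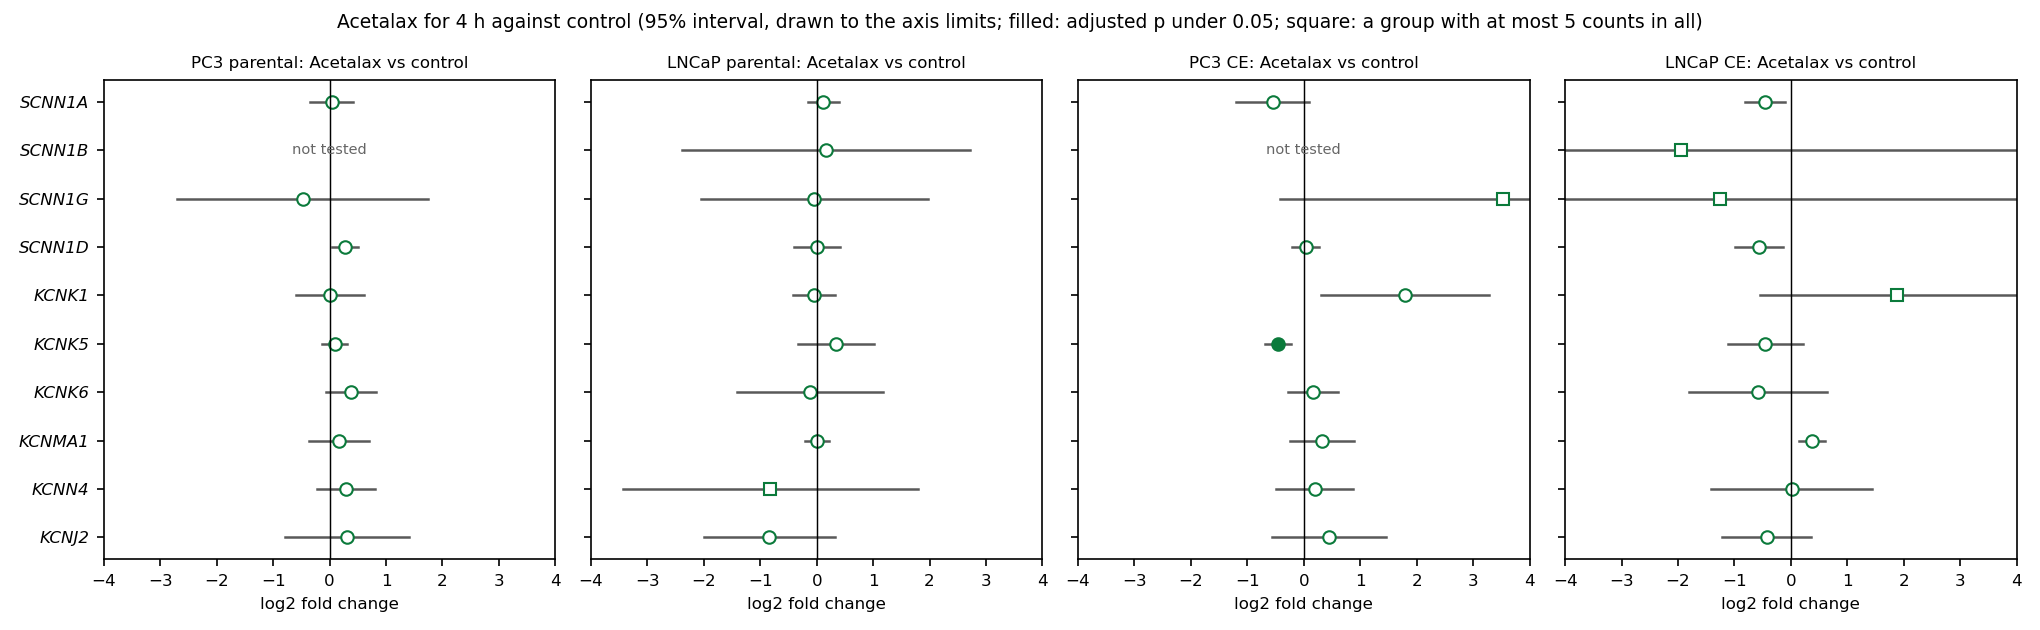
Log2 fold change of Acetalax against control with its 95% interval for each member, in the 4 kinds of cells; filled symbols have an adjusted p under 0.05, and squares mark genes with at most 5 counts in all libraries of one group. KCNK5 in PC3 CE is the single filled symbol, at -0.45.

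In parental PC3, the Acetalax TPM values of SCNN1D, KCNK6, KCNN4 and KCNMA1 all lay above the controls. The share of all genes separated in this way was not counted, so the separation is no support in itself. SCNN1D was at 17.6, 19.9 and 17.3 TPM after Acetalax against 15.2 to 16.6 TPM in controls (log2 fold change 0.27, interval 0.04 to 0.50, edgeR adjusted p = 0.165). KCNK6 was at 6.56, 6.35 and 6.56 TPM against 4.77 to 5.37 TPM (0.38, interval -0.06 to 0.82, adjusted p = 0.321). KCNN4 was at 87.0, 90.5 and 95.4 TPM against 67.2 to 78.7 TPM (0.29, interval -0.23 to 0.81, adjusted p = 0.568). KCNMA1 was at 14.4, 12.8 and 14.5 TPM against 10.4 to 12.0 TPM (0.17, interval -0.36 to 0.69, adjusted p = 0.802). These fits share 1 spread over the 12 PC3 libraries. Without PC3 CE Acetalax 1, the library that stands apart, the same changes were called for KCNK6 (0.38, adjusted p = 0.00278), KCNN4 (0.29, 0.0137) and SCNN1D (0.27, 0.0219), and they were called as well when the 6 compared libraries were fitted alone. Over all genes, 5590 of 20459 were called without that library, and 4762 of 17611 with the compared libraries alone. SCNN1A, at 26.6, 25.4 and 24.8 TPM after Acetalax, and KCNK1 overlapped their controls, with intervals of -0.34 to 0.41 and -0.59 to 0.62.

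In parental LNCaP the Acetalax and control libraries overlapped for all 10 members, and such overlap was not counted over all genes. SCNN1A was at 83.3, 88.3 and 58.8 TPM after Acetalax (log2 fold change 0.12, interval -0.16 to 0.39), and KCNMA1 at 37.1, 36.8 and 37.4 TPM (0.00, interval -0.21 to 0.21). The intervals of SCNN1B (-2.38 to 2.72) and SCNN1G (-2.06 to 1.97) were wide, and each group held 1 library that stands apart. Without those libraries KCNK5 was called higher (0.51, edgeR adjusted p = 0.0148) and KCNJ2 lower (-1.94 ± 0.58, adjusted p = 0.0210). In that fit 5280 of all 19832 genes were called.

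KCNK5 in the PC3 CE libraries was the single member called for Acetalax. It was at 1.32, 1.41 and 1.56 TPM after Acetalax and at 2.10, 1.92 and 2.16 TPM in controls, 1.37-fold lower (log2 fold change -0.45 ± 0.11, edgeR adjusted p = 0.0259). The groups did not overlap. The call stood without the library apart (-0.40, adjusted p = 0.0223) but was lost without PC3 CE control 1 (0.0945), 2 (0.0532) or 3 (0.106) and when the compared libraries were fitted alone (0.175). PC3 CE Acetalax 1 was the highest library of its group for SCNN1B, SCNN1G, KCNK1, KCNK6, KCNMA1, KCNN4 and KCNJ2: KCNMA1 was at 4.68 TPM there against 1.81 and 1.87 TPM, and 15 of the 16 SCNN1G counts of the group came from it. KCNK1 was called higher by DESeq2 (adjusted p = 0.00732) but not by edgeR (log2 fold change 1.79, adjusted p = 0.124), and without that library its value was 0.73 (adjusted p = 0.453).

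In the LNCaP CE libraries the Acetalax TPM values of SCNN1A, SCNN1D, KCNK5, KCNK6 and KCNJ2 all lay below the controls. The share of all genes separated in this way was not counted, so the separation is no support in itself. On TPM, all genes leaned lower: limma on log2(TPM + 0.1) called 1279 lower and 282 higher (median -0.10). On counts, edgeR called 788 lower and 648 higher (median 0). With the compared libraries fitted alone, 7884 of 15947 genes were called. SCNN1A was at 0.88, 0.70 and 0.52 TPM after Acetalax against 1.00, 1.42 and 1.30 TPM (log2 fold change -0.46, interval -0.82 to -0.10, edgeR adjusted p = 0.124). SCNN1D was at 1.48, 1.92 and 1.91 TPM against 3.50, 2.54 and 3.08 TPM (-0.57, interval -1.0 to -0.14, adjusted p = 0.108). KCNK5 was at 2.47, 2.44 and 2.07 TPM against 3.48 to 3.57 TPM (-0.46, edgeR adjusted p = 0.459). The log2 fold change was -0.58 for KCNK6 (adjusted p = 0.644) and -0.43 for KCNJ2 (0.591). KCNMA1, at 1.85, 2.37 and 2.61 TPM against 1.87 to 1.95 TPM, had a log2 fold change of 0.37 ± 0.10 (adjusted p = 0.0574). Without the LNCaP parental libraries that stand apart, 4 members were called in LNCaP CE: SCNN1D (adjusted p = 0.00113), KCNK5 (0.0035) and SCNN1A (0.0353) lower, and KCNMA1 higher (0.0084). In that fit 6763 of all 19832 genes were called, so being called was common there. The calls in this comparison thus changed with the libraries that entered the fit.

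The difference in the Acetalax response between CE and parental cells was tested as an interaction, which shares all 4 groups of a line with the comparisons above. In PC3, 1 of 9 members was called, KCNK5 (log2 difference -0.54 ± 0.14, interval -0.86 to -0.23, edgeR adjusted p = 0.042), where 8.03% of all genes were. The call was lost with the replicate block (adjusted p = 0.0612) and in 9 of 12 fits that left out 1 library. Without PC3 CE Acetalax 1 the KCNK5 difference was -0.49 (adjusted p = 0.0148), and KCNK6 was called as well (-0.57, adjusted p = 0.00547, against -0.22 with that library). In that fit 4594 of all 20459 genes were called. In LNCaP, 0 of 10 members were called, where 1.28% of all genes were; 2 had an unadjusted p under 0.05, SCNN1A (-0.58, interval -1.03 to -0.12) and KCNMA1 (0.37, interval 0.06 to 0.68), and 0 were called by DESeq2 or limma. Without the libraries apart, 4 were called in LNCaP: KCNK5 (-0.96, adjusted p = 0.00143), SCNN1A (-0.63, 0.0169), SCNN1D (-0.54, 0.0338) and KCNMA1 (0.38, 0.0423). In that fit 3837 of all 19832 genes were called. Between the parental lines the response differed for 0 of 10 members, where 5.05% of all genes were called, with 0 at an unadjusted p under 0.05 and 0 by DESeq2 or limma.

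The genes that act on ENaC were described by a fixed list of 7 trafficking and hormone regulators and 6 activating proteases and inhibitors. In the CE controls, all 6 of the proteases and inhibitors were lower in each line, where 39.0% of all genes in PC3 and 39.3% in LNCaP were lower, with a median log2 fold change of -7.69 in PC3 and -8.75 in LNCaP (-7.30 and -7.56 with TMPRSS4, at 0 counts, set to its bound). ST14 (matriptase) fell from 199 to 0.217 TPM in PC3 (log2 -9.90 ± 0.28, edgeR adjusted p = 4.45e-11) and from 73.2 to 0.137 TPM in LNCaP (-10.35 ± 0.39, 1.21e-09). SPINT2, a Kunitz inhibitor of such proteases, fell from 473 to 3.26 TPM in PC3 (-8.00 ± 0.34) and from 411 to 0.97 TPM in LNCaP (-9.99 ± 0.20). TMPRSS4 had 0 counts in the CE controls of both lines, against 385 in PC3 and 221 in LNCaP parental controls. Activators and inhibitors both fell. Of the 7 regulators, 1 was higher and 5 lower in each line, with medians of -1.77 and -3.26; a share of 6 in 7 called is close to the 77.5% and 75.3% of all genes called. NEDD4L fell from 120.2 to 14.3 TPM in PC3 (-3.17 ± 0.28, adjusted p = 7.83e-07). NR3C2, the mineralocorticoid receptor, fell from 899 counts to 3 in LNCaP (-7.90 ± 0.62, adjusted p = 4.77e-07), and HSD11B2, the enzyme that shields it from cortisol, from 73.7 to 0.91 TPM (-6.14 ± 0.49, 5.9e-07). SGK1, the kinase that restrains NEDD4L, fell from 2.56 to 0.337 TPM in LNCaP (-3.69 ± 0.37, 3.54e-06). The acid-sensing relatives split: of 3 tested, 1 was higher and 2 lower in PC3, and 2 were higher and 0 lower in LNCaP. ASIC1 rose from 5.28 to 11.6 TPM in LNCaP (1.24 ± 0.11, 1.84e-06) and fell in PC3 (-0.64 ± 0.08, 1.5e-05). ASIC3 fell from 20.2 to 4.09 TPM in PC3 (-2.69 ± 0.13, 3.01e-09).

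The potassium channel relatives went in both directions, as did all genes tested (38.5% higher and 39.0% lower in PC3, 36.0% and 39.3% in LNCaP). Of the other K2P channels on a list of 12, 5 were tested in PC3, with 1 higher and 3 lower (median -1.46), and 6 in LNCaP, with 4 higher and 2 lower (median 6.03, or 4.38 with genes at 0 set to their bound). KCNK2 had no counts in LNCaP parental controls against 167 in the CE controls, and KCNK4 none against 19. Genes near 0 in one state pass the low-count filter mainly through the other. As for the members, counts and medians over this and the other lists are therefore no support in themselves. KCNK9 (TASK3) rose from 0.45 to 9.32 TPM in LNCaP (log2 6.34 ± 0.36, edgeR adjusted p = 3.3e-08), while KCNK15 fell from 6.15 to 0.18 TPM in PC3 (-5.17 ± 0.51, 1.88e-06) and rose from 0.0133 to 1.08 TPM in LNCaP (6.31 ± 0.50, 2.84e-06). Of the other inward rectifiers on a list of 14, 3 were higher and 5 lower of 8 tested in PC3 (median -1.63), and 3 higher and 2 lower of 6 in LNCaP (median 2.03). KCNJ3 (Kir3.1) had 4 counts in PC3 parental controls and 12415 in PC3 CE controls, 31.2 TPM (11.27 ± 0.31, 4e-11), and rose from 0.33 to 2.72 TPM in LNCaP (4.16 ± 0.24, 3.78e-08). KCNJ4 (Kir2.3) rose in both lines, to 8.62 TPM in PC3 (5.95 ± 0.24) and 9.46 TPM in LNCaP (6.76 ± 0.48). KCNJ12 shares sequence with KCNJ18, so its values are uncertain.

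Among the other calcium- and sodium-activated potassium channels, a list of 6, 2 were tested in PC3 and both were higher (median 4.32), and of 6 in LNCaP 3 were higher and 3 lower (median -2.24, or -1.80 with genes at 0 set to their bound). KCNN2 (SK2) fell from 128 to 0.137 TPM in LNCaP (log2 -9.89 ± 0.41, edgeR adjusted p = 2.69e-09), and KCNN1 (SK1) rose in PC3 from 0.137 to 7.98 TPM (4.51 ± 0.34, 1.96e-07) and in LNCaP from 0.347 to 3.45 TPM (2.68 ± 0.60, 0.00181). Of the 8 BK auxiliary subunits, 4 were tested in PC3 and 3 in LNCaP, with 1 higher and 1 lower in each line (medians -0.39 and -0.15). LRRC26, the gamma subunit that lets BK channels open at low calcium, was abundant in LNCaP parental controls, at 136 TPM against 1.00 TPM in PC3 parental controls (7.05 ± 0.45, 1.46e-11), and fell to 0.14 TPM in LNCaP CE controls (-9.75 ± 0.47, 7.94e-09). It stood beside the LNCaP fall of KCNMA1, the pore it joins. KCNMB4, a beta subunit, rose from 0.14 to 1.15 TPM in LNCaP (3.35 ± 0.40, 1.7e-05).

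**Figure D5:**
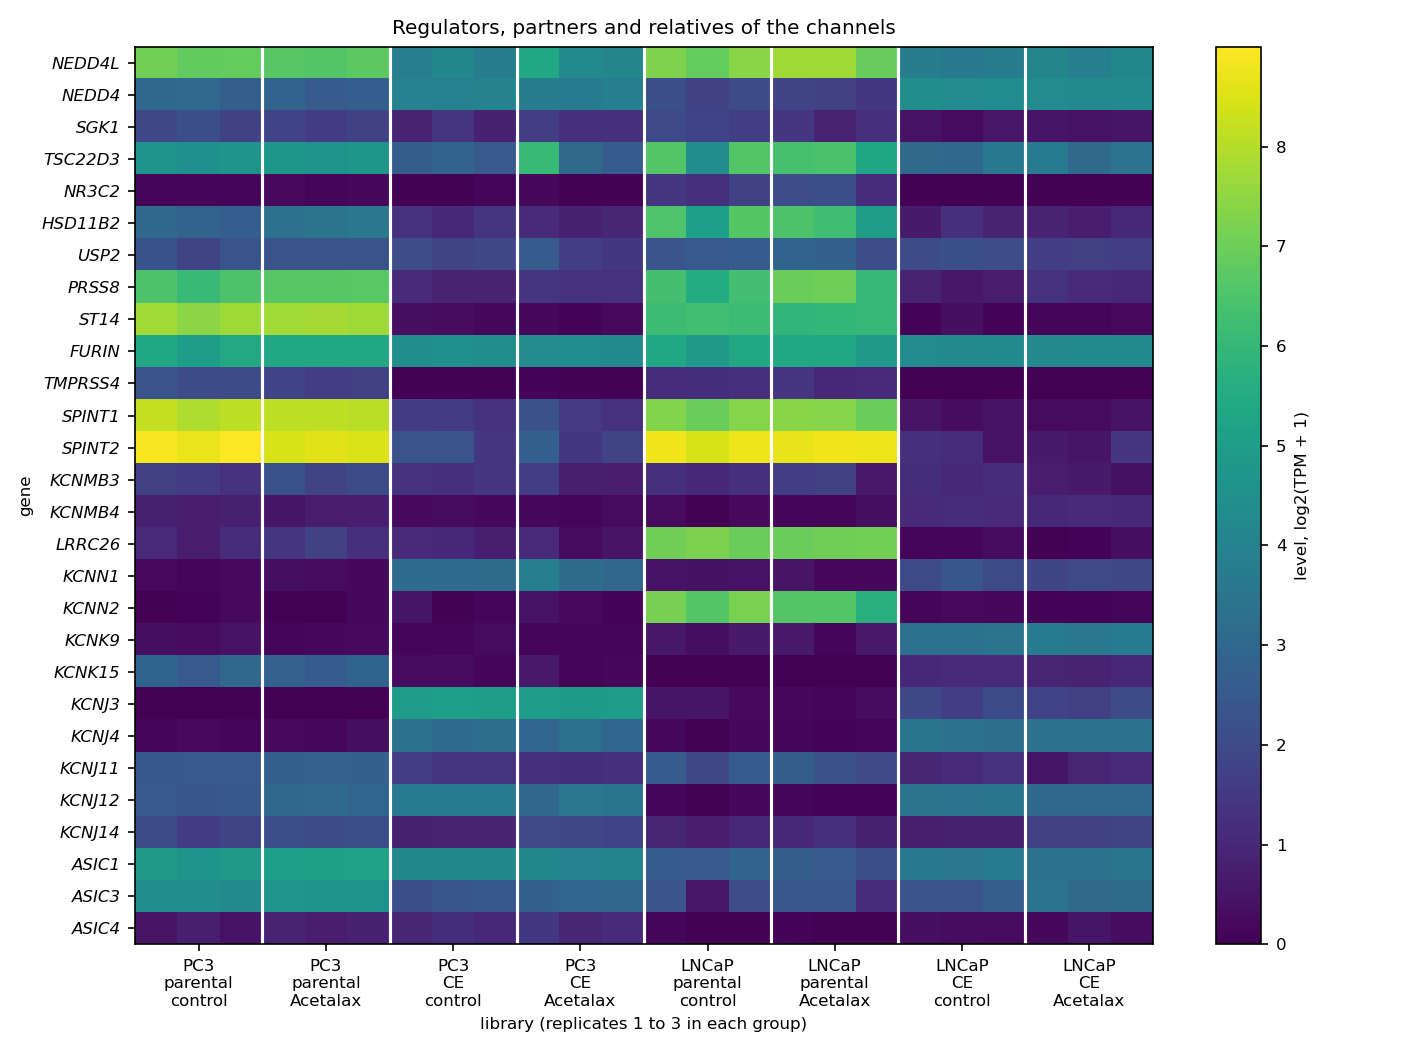
Level, log2(TPM + 1), of 28 regulators, partner subunits and relatives of the members (rows) in the 24 libraries (columns, by group). Brighter cells are higher levels. Proteases, their inhibitors and LRRC26 are brighter in parental columns than in those labelled CE (LRRC26 in LNCaP). KCNJ3 and KCNJ4 are seen in the columns labelled CE.

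After Acetalax, 3 of the 35 listed genes tested were called in parental PC3 and 4 of 35 in PC3 CE, where 7.80% and 8.15% of all genes were, so these shares lie near those over all genes. In parental PC3, HSD11B2 (log2 0.77 ± 0.17, edgeR adjusted p = 0.0205), KCNJ12 (0.68 ± 0.15, 0.0179) and ASIC1 (0.32 ± 0.08, 0.0314) were higher, and each of these calls was lost when some single libraries were left out. In parental LNCaP, 0 of 37 were called by edgeR, where 8.45% of all genes were, with 6 at an unadjusted p under 0.05, 1 called by DESeq2 and 1 by limma on log2(TPM + 1). In LNCaP CE, 1 of 37 was called, where 7.40% of all genes were. KCNJ14 (Kir2.4) responded in both sets of libraries labelled CE. It was at 2.99, 2.81 and 2.54 TPM after Acetalax against 0.75, 0.83 and 0.88 TPM in PC3 CE (1.83 ± 0.16, adjusted p = 0.000201), and at 2.25, 2.30 and 2.62 TPM against 0.70, 0.73 and 0.73 TPM in LNCaP CE (1.88 ± 0.19, 0.00054). ASIC3 rose in PC3 CE from 4.09 to 6.50 TPM (1.04 ± 0.13, 0.00109). PRSS8 (0.77 ± 0.15, 0.0128) and SGK1 (0.99 ± 0.17, 0.00555) were higher there too. Both of the latter calls were lost when the compared libraries were fitted alone (edgeR adjusted p = 0.118 and 0.0728). Leaving out PC3 CE control 2 (0.0631) or 3 (0.0628) also ended the PRSS8 call. With limma and 1 added to TPM, neither PRSS8 (0.0638) nor SGK1 (0.319) was called. With 0.1 added, SGK1 was again not called (0.276).

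Likeness to each member was measured as Pearson r of log2(TPM + 1) over the 24 libraries, among 14218 genes, as a description without a test, since the libraries share 8 groups. Among the members themselves, SCNN1B and SCNN1G were most alike (r = 0.976), followed by SCNN1A and KCNMA1 (0.967), KCNK5 and KCNN4 (0.938) and SCNN1A and KCNK1 (0.932). The closest genes to SCNN1A were MPZL3 (0.995), PTPN6 (0.993) and SLC44A4 (0.992). KCNK1 was closest to CHMP4C, ESRP1 and PMEPA1 (each 0.998), KCNN4 to DYSF (0.998), TGM2 and TRIM58 (each 0.997), and KCNMA1 to CLGN (0.996), SLC45A3 (0.992) and ZG16B (0.991). SCNN1G was closest to ANGPT2 (0.996), LDLRAD1 and DIO3 (each 0.993), and SCNN1B to MRGPRE (0.977), SCNN1G (0.976) and ANGPT2 (0.975). For SCNN1D they were RHPN1 (0.985), PHLDA3 (0.980) and EHD4 (0.979), for KCNK5 VWDE (0.985), ADPRH and NFE2L3 (each 0.984), and for KCNK6 ATG16L2 (0.990), COL18A1 (0.988) and RGL3 (0.985). KCNJ2, under 1 TPM in every group, was not compared.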

How the data were processed

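Expression was taken from the deposited gene tables of 24 libraries. Poly(A) RNA from 800 ng was, per the labels' protocols, made into directional libraries and sequenced as 100-base pairs. The submitters' processing notes name FastQC, STAR 2.7, RSEM and GRCh38 (hg38); for the annotation release and the strand setting the entry is "not given in the sources used here". The authors deposited RSEM expected counts, estimated counts of which 10.2% are not whole, and TPM values, scaled by gene length and to the same total in each library. A further 2 columns belong to no sample and were not used. The channel genes and gene lists were chosen with earlier results of these data known.

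Expected counts were rounded and tested with edgeR 4.0.16 (R 4.3.3; TMM scaling, a minimum count of 10, quasi-likelihood F test) over the 12 libraries of a line or all 24, with adjustment over all genes tested and a threshold of 0.05. Errors on log2 values are standard errors, ± beside TPM is the SD of 3 libraries, and intervals are 95%. A group of 0 counts was compared against a floor of 3 counts over the group; intervals and floors of counts cover counting error only. Alternatives were RLE scaling, no filter or a minimum count of 30, DESeq2 1.42.0, limma 3.58.1 on log2(TPM + 1) or log2(TPM + 0.1), a replicate block, the compared libraries alone, each library left out, and the 3 libraries apart left out. Gene positions are from GENCODE 29 (GRCh38), in which 58429 features were found. The procedure was tested on simulated data with the same spread for every gene and no library that stands apart. That test therefore does not cover the libraries apart in these data. Besides all members, the text names up to 3 called genes per list with the largest change and a mean of at least 1 TPM in a group, and the 3 genes most alike to each member. Without the strand setting, reads of genes that overlap on opposite strands (SCNN1A, SCNN1G, KCNMA1 and KCNJ2 among the members) cannot be told apart.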

Additional observations from a re-analysis of the deposited data

Results flagged for a closer look

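For 8 results the test of a difference between 2 groups' effects passed the threshold (edgeR, adjusted over all genes). The change from parental to CE controls differed between LNCaP and PC3 for KCNN4 (8.98 on the log2 scale), KCNK5 (4.01), KCNJ2 (3.39), KCNK6 (2.52), SCNN1D (0.62), KCNMA1 (-1.52) and KCNK1 (-3.87). In PC3 the Acetalax response of KCNK5 differed between CE and parental cells by -0.54. The KCNK1 and SCNN1D differences and the KCNK5 response difference were lost under several alternatives. The KCNN4 difference sets the PC3 fall against LNCaP groups near 0 (4 parental and 30 CE counts), and KCNJ2 was below 1 TPM in every library.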

How the results depend on the processing

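The number of members called for Acetalax moved with the settings. In parental PC3 it was 0 and became 1 by DESeq2, 3 without the libraries apart and 3 with the compared libraries alone (0 with any compared library left out). In parental LNCaP it went from 0 to 2 without the libraries apart. In PC3 CE it went from 1 to 0 with no filter, by limma on log2(TPM + 1) and with the compared libraries alone, and to 2 by DESeq2 (0 to 2 with 1 library left out). In LNCaP CE it went from 0 to 1 by RLE scaling, a minimum count of 30, either limma scale and DESeq2, to 4 without the libraries apart and 5 with the compared libraries alone. The PC3 response difference went from 1 to 0 with no filter, the replicate block or either limma scale, and to 2 by DESeq2 or without the libraries apart (0 to 2 with 1 library left out); the LNCaP one went from 0 to 4 and that between parental lines from 0 to 1 without the libraries apart.

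The counts for the other 5 comparisons stayed within 1.5 times. One called value changed sign: the KCNK1 difference in CE change, 0.62 by limma on log2(TPM + 1). Over all members and settings, 1727 single values kept direction and side of the threshold, 97 uncalled values from 36 results changed sign without being called, 44 lost and 39 gained the call. Replicate numbers did not pair the libraries (same-number deviations correlated at 0.41, -0.49 and -0.59 in parental LNCaP). There control 2, which stands apart, correlated at up to 0.71 with Acetalax libraries of other numbers. The block otherwise left the counts of members called within 1.5 times. Over all genes it moved the calls from 249 to 55 for the LNCaP response difference, from 1633 to 994 in PC3 CE, from 1436 to 870 in LNCaP CE and from 1610 to 1007 for the PC3 response difference. Counts over all genes ranged from 573 to 5590 (1564 as reported) for Acetalax in parental PC3, from 154 to 5280 (1639) in parental LNCaP, from 224 to 3358 (1633) in PC3 CE and from 541 to 7884 (1436) in LNCaP CE. For the response differences they ranged from 758 to 4594 (1610) in PC3, from 55 to 3837 (249) in LNCaP and from 691 to 4326 (1108) between parental lines. The cause of these changes was not tested. Depth limits SCNN1B, SCNN1G and KCNJ2, and KCNN4 in LNCaP, which rest on few counts.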
